A study of Mus musculus with 28 samples.

Results

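The genes described here make, racemize or carry the amino acid serine. They were taken as a list of 6 named members, Phgdh, Psat1, Psph, Srr, Slc1a4 and Slc7a10, matched by their mouse symbols to Ensembl identifiers in the GRCm38 assembly. All 6 were present among the 53342 identifiers of the deposited count tables, and all 6 passed the filter on low counts in every comparison. The study measured RNA of the mouse cerebral cortex after conditional knockout (cKO) of a floxed gene in astrocytes. Whole cortex RNA was sequenced at postnatal day 17 (P17) and postnatal day 24 (P24), with 4 cKO and 4 Ctrl mice at each age. At P24, translating ribosome affinity purification (TRAP-Seq) of 3 cKO and 3 Ctrl mice gave an IP library, of RNA on ribosomes pulled down by their EGFP tag, and an Input library of the unselected lysate from the same mouse.

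In cKO mice both copies of the targeted gene had loxP sites, and Cre came from the mGFAP-Cre driver, that is, from the murine GFAP promoter. The Ctrl mice of the bulk tables were littermates with loxP/loxP or loxP/+ alleles and no Cre driver, so that some of them could carry a single floxed allele. In the TRAP mice the EGFP/Rpl10a tag was itself switched on by mGFAP-Cre, and its Ctrl mice are also described as loxP/loxP or loxP/+. Whether those Ctrl mice carried the driver is not stated in the sources used here, although the tag needs it. All mice were on the C57BL/6J background, and each library came from 1 mouse. In whole cortex libraries, fewer cells of a type and less RNA per cell cannot be told apart.

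L-serine is made in the brain mainly by astrocytes, from the glycolytic intermediate 3-phosphoglycerate. Phgdh oxidizes 3-phosphoglycerate in the committed step, Psat1 transfers an amino group from glutamate, and Psph removes the phosphate to leave L-serine. Srr, the serine racemase, turns L-serine into D-serine, a co-agonist of NMDA receptors, and is known mostly from neurons in the forebrain. Slc1a4 (ASCT1) exchanges small neutral amino acids including both forms of serine, and Slc7a10 (Asc-1), which pairs with the heavy chain Slc3a2, carries small neutral amino acids including glycine and D-serine.

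Phgdh carries a property that bears on its counts. The gene lies on the minus strand at chr3:98313170-98339990 of GRCm38 and is matched by 20 processed pseudogenes, intronless copies of its mRNA, over at least 500 bases at 88.2 to 98.7% identity. A read from a stretch they share can be assigned to the gene or to a copy, and of the reads counted on Phgdh and the 18 copies present in the tables, the copies held 73.62 to 77.32% in bulk libraries, 63.21 to 64.34% in IP and 60.89 to 66.31% in Input. These shares overlapped between cKO and Ctrl in each of the 4 settings. Psat1 had 1 such copy, Gm12611, at 91% identity, which held 1.01 to 6.06% of the summed counts.

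The 3 members that differed by genotype in P24 bulk cortex, Psat1, Slc1a4 and Slc7a10, are shown by the 250 bases before their RefSeq start (GRCm38.p6), written along the gene, with the letters CCAAT on either strand (CCAAT or ATTGG) in capitals.
Psat1, chr19:15925060-15925309, minus strand: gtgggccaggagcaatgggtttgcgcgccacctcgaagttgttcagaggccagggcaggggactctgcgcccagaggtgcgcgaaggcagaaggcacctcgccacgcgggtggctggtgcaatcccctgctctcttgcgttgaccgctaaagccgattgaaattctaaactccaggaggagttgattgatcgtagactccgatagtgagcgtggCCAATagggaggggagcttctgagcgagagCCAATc
Slc1a4, chr11:20332714-20332963, minus strand: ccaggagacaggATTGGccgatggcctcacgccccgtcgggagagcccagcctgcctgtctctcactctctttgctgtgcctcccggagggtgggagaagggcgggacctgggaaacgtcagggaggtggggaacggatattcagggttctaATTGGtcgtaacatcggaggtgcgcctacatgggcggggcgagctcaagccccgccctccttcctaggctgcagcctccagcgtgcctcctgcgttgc
Slc7a10, chr7:35186135-35186384, plus strand: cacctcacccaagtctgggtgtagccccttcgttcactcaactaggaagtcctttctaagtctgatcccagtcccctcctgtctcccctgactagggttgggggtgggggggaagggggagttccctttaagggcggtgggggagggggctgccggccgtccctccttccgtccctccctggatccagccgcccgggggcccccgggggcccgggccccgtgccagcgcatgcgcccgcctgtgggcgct
Psat1 and Slc1a4 each held 2 matches and Slc7a10 held 0, and of the members that did not differ there Phgdh and Psph held 2 each and Srr 0, so that the matches did not sort the members by direction. Of 32851 promoter windows of the same length, 33.8% held at least 1 match on either strand. The letters GGGCGG or their reverse complement matched 3 times before Slc1a4, 2 times before Slc7a10 and 0 times before Psat1. Of the members that did not differ, Srr held 4, Psph 3 and Phgdh 0, so that these matches did not sort the members either. Of all windows, 32.7% had a match. TGATGNAA matched before none of the 6 members, against 3.45% of all windows. Psat1 has another RefSeq start, with 0 CCAAT matches and 1 GGGCGG match before it. These matches describe letters in a window and were looked at after the differences were known.

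The TRAP libraries held 18433087 to 27242445 counts, the P24 bulk libraries 12603888 to 14575306 and the P17 bulk libraries 8855488 to 11454729. In Ctrl mice all 8 astrocyte markers were higher in IP than in Input (median log2 fold change 3.69), and 7 of 8 neuron markers were lower. The summed astrocyte markers ranged from 950.5 to 1089 CPM (a gene's share of the counts in its library, on the CPM scale with edgeR's TMM factors) in the Ctrl Input libraries and from 1433 to 1957 in the cKO Input libraries, and overlapped between the genotypes in IP and at both bulk ages. Single markers did differ in cKO, in P24 bulk Gfap (2.51), Aqp4, Aldh1l1 and Sox9 higher and the glutamate carriers Slc1a2 (-0.41) and Slc1a3 (-0.40) lower, and in IP Gfap higher (0.76) and Slc1a2 (-0.71) and Slc1a3 (-0.95) lower. Gfap was also higher in P17 bulk (1.03) and Aldoc in Input (0.92, list median 0.685), and of 8 neuron markers Syp was lower in IP (-0.43). The part of these markers in the members' differences was not tested. Input cKO replicate 1 stood apart from its group, at a chi-square per degree of freedom of 85.2 and 89.8 against the other replicates, which were at 8.99 against each other, and so did P24 bulk cKO replicate 1 (12.7 to 15.8, against 3.46 to 5.25 among the others). Levels of the P17, P24 and TRAP tables were scaled separately, and levels set side by side across them are descriptions. The age by genotype interaction and the bulk correlations used factors taken over all 16 bulk libraries. All levels are in CPM, and a gene is said to differ where its Benjamini-Hochberg adjusted p over all genes tested was under 0.05. Counts of genes at an unadjusted p under 0.05 are given without the share of all genes at that p, which was not computed.

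In bulk cortex at P24, 3 of the 6 members differed between cKO and Ctrl, Psat1 and Slc1a4 higher and Slc7a10 lower, where 1.72% of the 22495 genes tested differed, 1.26% higher and 0.462% lower. In IP, 2 of 6 differed, Phgdh and Slc7a10, both lower, where 20% of 23864 genes differed and 8.42% were lower, so that the members' count stands against a high background. In P17 bulk 0 of 6 differed in edgeR, where 0.0943% of 21201 genes did, with 1 member, Slc7a10, at an unadjusted p under 0.05 and 0 in DESeq2. In Input 0 of 6 differed in edgeR, where 0.109% of 23828 genes did, with 2 members, Phgdh and Psat1, at an unadjusted p under 0.05 and 0 in DESeq2. The ranges of cKO and Ctrl did not overlap for 3 members in P24 bulk, against 7.66% of all genes, for 0 in P17 bulk, against 2.83%, for 2 in IP, against 37.7%, and for 2 in Input, against 11.9%, so that the count in IP is near the background. The median log2 fold change of the 6 was 0.17 in P24 bulk, 0.04 in P17 bulk, 0.05 in IP and 0.24 in Input.

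**Figure D1:**
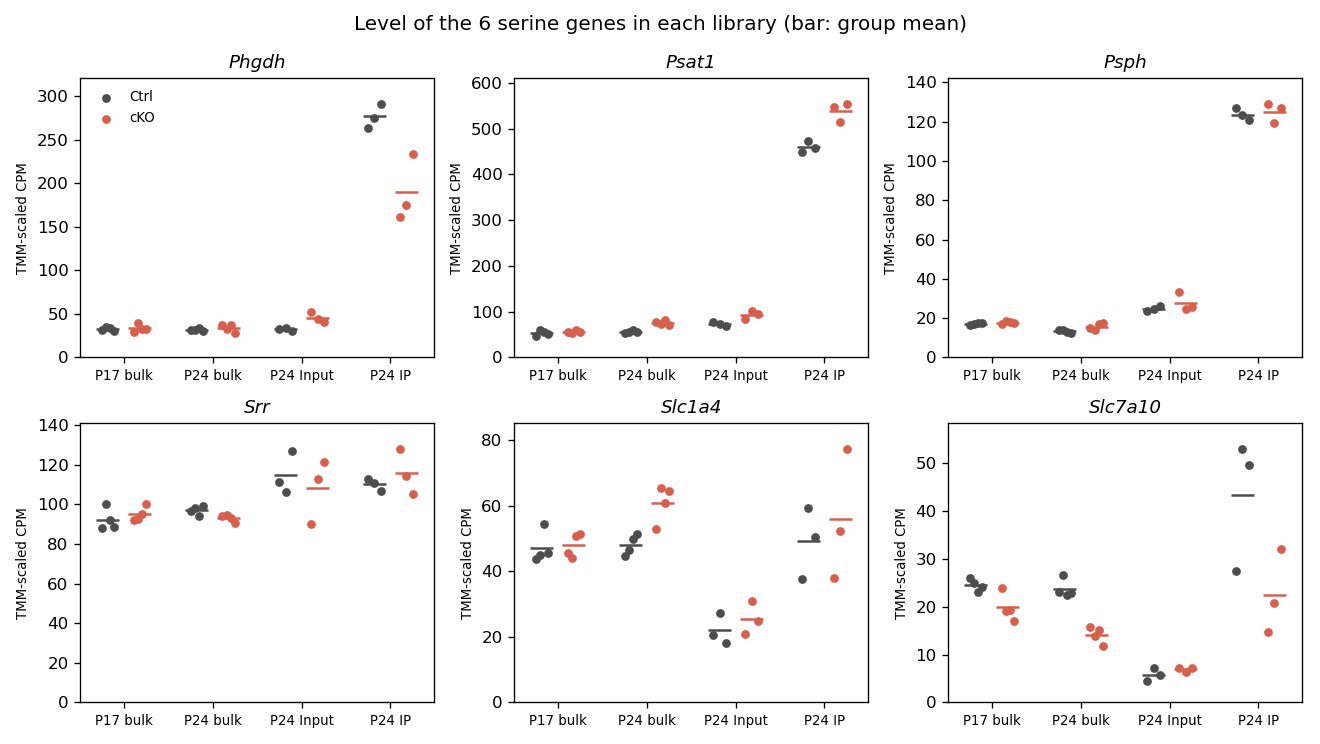
TMM-scaled CPM (vertical axes, from 0) of each serine gene in every library, with Ctrl in grey and cKO in red, for P17 bulk, P24 bulk, P24 Input and P24 IP along the horizontal axis; each point is 1 mouse and each bar a group mean. Phgdh, Psat1 and Psph stand far higher in IP than elsewhere, Srr is alike in all settings, and Slc7a10 separates cKO from Ctrl in P24 bulk (means 14.15 and 23.8 CPM).

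Phgdh (ENSMUSG00000053398), the committed enzyme, was lower in cKO than in Ctrl in IP. Its IP level was 264, 275 and 291 CPM in the 3 Ctrl mice and 162, 175 and 234 CPM in the 3 cKO mice. Every cKO library was below every Ctrl library, a separation in the lower direction that 18.7% of all genes tested in IP showed, and the cKO mice were the more spread out (190.2 ± 38.31 against 276.9 ± 13.75 CPM, SD, n = 3). This was a log2 fold change of -0.53 (SE 0.136, 95% interval -0.83 to -0.23, edgeR adjusted p = 0.0182), a ratio of 0.691. With the reads of the copies added to those of Phgdh the log2 fold change was -0.54 (adjusted p = 0.0182).

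In Input, from the same mice, Phgdh went the other way. It measured 32.6, 33.4 and 30.1 CPM in Ctrl and 52.0, 44.3 and 40.6 CPM in cKO. All cKO libraries were above all Ctrl libraries, a separation in the higher direction that 6.59% of all genes showed, but the change of 0.51 on the log2 scale (interval 0.17 to 0.85) did not pass the test (edgeR adjusted p = 0.774). Replicate 1, at 52.0 CPM, was the Input library that stood apart, and without it the change was 0.41 (adjusted p = 0.265). The summed astrocyte markers separated the Input libraries by genotype in the same direction, and their part in the Phgdh value was not tested. Per 1000 astrocyte marker counts, Phgdh had 28.6 to 34.3 counts in Ctrl and 22.6 to 36.3 in cKO Input, which overlapped, and 22.9 to 26.5 in Ctrl and 15.9 to 17.9 in cKO IP, which did not.

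In whole cortex Phgdh was at nearly the same level in all groups. At P24 it measured 31.0, 31.5, 33.3 and 29.7 CPM in Ctrl and 37.1, 32.4, 37.1 and 27.5 CPM in cKO. At P17 it measured 31.5, 35.4, 33.9 and 30.03 CPM in Ctrl and 29.3, 40.0, 33.1 and 32.4 CPM in cKO. The groups overlapped at both ages, and the 95% interval of the log2 fold change ran from -0.09 to 0.29 at P24 and from -0.15 to 0.24 at P17.

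The call for Phgdh in IP depended on single libraries. It was lost without IP Ctrl replicate 2 (adjusted p = 0.0515), Ctrl replicate 3 (0.063), cKO replicate 1 (0.0587) or cKO replicate 2 (0.0839), with a log2 fold change between -0.71 and -0.40 over all 6 libraries left out in turn.

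Psat1 (ENSMUSG00000024640, chr19:15904678-15947337, minus strand), the aminotransferase of the pathway, was higher in cKO cortex at P24. It measured 54.3, 55.1, 59.2 and 55.1 CPM in Ctrl and 77.1, 72.5, 81.6 and 70.7 CPM in cKO. The groups did not overlap, as in 4.25% of all genes with cKO higher. Per 1000 astrocyte marker counts, Psat1 had 12.7 to 14.7 counts in Ctrl and 17.4 to 19.8 in cKO, also without overlap. The log2 fold change was 0.43 (SE 0.0587, 95% interval 0.30 to 0.56, edgeR adjusted p = 0.00263), a ratio of 1.35, and the exact two-sided permutation p of the difference in means was 0.0286, the smallest that 4 against 4 libraries allow. The call was made under all 16 alternatives tried, among them without cKO replicate 1, which stood apart (0.42, adjusted p = 0.000909).

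At P17 the Psat1 groups overlapped. The 4 Ctrl mice had 46.5, 58.8, 56.5 and 50.5 CPM and the 4 cKO mice 55.1, 52.3, 58.8 and 55.5 CPM. The log2 fold change was 0.06 (interval -0.10 to 0.23). The difference between the ages in the effect of genotype was 0.37 on the log2 scale and did not pass the test (edgeR adjusted p = 0.411).

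On the TMM-scaled levels, both TRAP fractions also had Psat1 above Ctrl in every cKO library. In IP it measured 448, 473 and 458 CPM in Ctrl and 547, 514 and 555 CPM in cKO, as separated as 19% of all genes tested in IP. The log2 fold change there was 0.24 (interval 0.04 to 0.44) and did not pass the test (edgeR adjusted p = 0.0887), but with the replicate number as a block it did (adjusted p = 0.0425), which brought the members called in IP to 3, and in DESeq2 it did too (0.0403). In Input, Psat1 measured 78.1, 73.5 and 68.7 CPM in Ctrl and 83.2, 101 and 95.3 CPM in cKO, a log2 fold change of 0.35 (interval 0.02 to 0.68, adjusted p = 0.812), and of 0.42 without cKO replicate 1 (adjusted p = 0.194). The separations in IP and Input were lost where libraries were scaled by their totals alone, with a log2 fold change of 0.13 in IP (edgeR adjusted p = 0.392). Per 1000 astrocyte marker counts, Psat1 in Input had 65.3 to 82.2 counts in Ctrl and 51.8 to 58.0 in cKO, lower in cKO without overlap. So did Srr (97.5 to 121 in Ctrl, 57.7 to 69.8 in cKO) and Slc1a4 (17.3 to 25.2 and 14.3 to 15.9), while the other members overlapped. The marker sum that divides these counts was itself higher in cKO Input, and its part was not tested. In IP Psat1 had 36.5 to 45.0 in Ctrl and 42.5 to 53.7 in cKO, which overlapped.

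Psph (ENSMUSG00000029446, chr5:129765558-129787449, minus strand), the phosphatase that ends the pathway, did not pass the test in any setting. At P24 it measured 13.8, 14.1, 12.7 and 12.5 CPM in Ctrl and 14.7, 13.7, 16.8 and 17.6 CPM in cKO bulk cortex, where the lowest cKO library lay among the Ctrl values. The log2 fold change of 0.24 (interval 0.04 to 0.44) had an adjusted p of 0.272. In IP the level was 121 to 127 CPM in Ctrl and 119 to 129 CPM in cKO, with an interval of -0.17 to 0.22 around a log2 fold change of 0.03. P17 bulk (16.4 to 17.6 CPM in Ctrl, 16.9 to 18.5 in cKO) and Input (23.7 to 26.1 CPM in Ctrl, 24.7 to 33.2 in cKO) also overlapped, and the Input log2 fold change of 0.17 was 0.03 without cKO replicate 1, the library at 33.2 CPM. Of its exonic bases, 10.4% overlap Cct6a on the opposite strand.

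Srr (ENSMUSG00000001323, chr11:74906359-74925948, minus strand), the racemase, passed the test in no setting and had a narrow range. Bulk cortex at P24 held 94.4 to 99.3 CPM in Ctrl and 90.7 to 94.6 CPM in cKO, and at P17 88.2 to 100.3 CPM in Ctrl and 92.02 to 100.2 CPM in cKO. Its log2 fold change was -0.06 in P24 bulk (interval -0.16 to 0.04), the narrowest interval of the 6 members there, and 0.04 in P17 bulk (-0.10 to 0.18). In IP it measured 107 to 113 CPM in Ctrl and 105 to 128 CPM in cKO (interval -0.13 to 0.29), and in Input 106 to 127 CPM in Ctrl and 90.2 to 121 CPM in cKO (interval -0.46 to 0.29), with a log2 fold change of -0.09 that was 0.03 without cKO replicate 1, the library at 90.2 CPM. Exons of Tsr1 on the opposite strand overlap 27.2% of the exonic bases of Srr and exons of Smg6 overlap 2.76%, and without knowledge of strand in the counting, reads there cannot be told apart. Neither neighbour differed in bulk, and Smg6 was higher in cKO IP (log2 fold change 0.35, adjusted p = 0.0291).

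Slc7a10 (ENSMUSG00000030495, chr7:35186385-35201114, plus strand), the carrier of glycine and D-serine, was lower in cKO cortex at P24. It measured 23.1, 26.7, 22.5 and 22.9 CPM in Ctrl and 15.8, 13.9, 15.2 and 11.7 CPM in cKO. The highest cKO library lay below the lowest Ctrl library, as in 3.41% of all genes with cKO lower. This was a log2 fold change of -0.75 (SE 0.0941, 95% interval -0.95 to -0.54, edgeR adjusted p = 0.0015), a ratio of 0.595, with an exact two-sided permutation p of 0.0286. The call was made under all 15 alternatives tried. Without cKO replicate 1 the log2 fold change was -0.81 (adjusted p = 0.000348), and without the Ctrl library at 26.7 CPM the log2 fold change was -0.69 (adjusted p = 0.00761). Per 1000 astrocyte marker counts, Slc7a10 had 5.58 to 6.21 counts in Ctrl and 2.89 to 3.76 in cKO, also without overlap.

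A smaller difference in Slc7a10 at P17 did not pass the test over all genes. The Ctrl mice measured 26.0, 25.0, 23.0 and 24.1 CPM and the cKO mice 23.9, 19.0, 19.4 and 17.1 CPM. Only cKO replicate 1 reached the Ctrl range. The difference was -0.31 on the log2 scale (interval -0.52 to -0.10, edgeR p = 0.00738, adjusted p = 0.815), and the exact two-sided permutation p was 0.0571 over 4 against 4 libraries. The change of the genotype effect from P17 to P24 was -0.44 on the log2 scale (interval -0.73 to -0.15) and did not pass the test (adjusted p = 0.536).

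In IP the Slc7a10 groups overlapped and both were widely spread. The level was 27.4, 53.0 and 49.7 CPM in Ctrl and 14.6, 20.8 and 32.0 CPM in cKO. Replicate 1 was lowest in both genotypes, and the cKO library was below the Ctrl library of the same number for all 3 numbers. The log2 fold change was -0.94 (SE 0.281, 95% interval -1.55 to -0.32, edgeR adjusted p = 0.0373), a ratio of 0.522. The call was lost without IP Ctrl replicate 2 (adjusted p = 0.121), Ctrl replicate 3 (0.113), cKO replicate 1 (0.105) or cKO replicate 2 (0.134), in DESeq2 (0.0888) and with all TRAP libraries in 1 fit (0.0568).

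In Input Slc7a10 was at its lowest level of the 4 settings, at 4.43, 7.13 and 5.66 CPM in Ctrl and 7.16, 6.26 and 7.21 CPM in cKO. The groups overlapped, and the log2 fold change was 0.27 (interval -0.22 to 0.76, adjusted p = 0.812), and 0.24 without cKO replicate 1. Exons of Lrp3 on the opposite strand overlap 17.9% of its exonic bases. Lrp3 itself had log2 fold changes of -0.16 in P24 bulk and -0.19 in IP, neither of which passed the test.

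Slc1a4 (ENSMUSG00000020142, chr11:20302180-20332713, minus strand), the exchanger of small neutral amino acids, was higher in cKO cortex at P24. It measured 44.8, 46.5, 50.0 and 51.3 CPM in Ctrl and 53.0, 65.6, 61.0 and 64.4 CPM in cKO. The groups were next to each other without overlap, as in 4.25% of all genes with cKO higher. Per 1000 astrocyte marker counts, Slc1a4 had 10.7 to 13.2 counts in Ctrl and 12.6 to 15.9 in cKO, which overlapped. The difference came to 0.34 on the log2 scale (SE 0.0741, 95% interval 0.18 to 0.50, edgeR adjusted p = 0.0404), a ratio of 1.27, with an exact two-sided permutation p of 0.0286. The call stood near the threshold. It was lost without any of the P24 Ctrl replicates 1, 2, 3 and 4 (adjusted p = 0.133, 0.13, 0.0815 and 0.0592) and without cKO replicate 2, 3 or 4 (0.128, 0.11 and 0.145), and was kept without cKO replicate 1 (0.00113), with the log2 fold change between 0.30 and 0.40 throughout.

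At P17 Slc1a4 measured 43.9, 44.9, 54.5 and 45.5 CPM in Ctrl and 45.5, 44.1, 50.8 and 51.5 CPM in cKO. The groups overlapped (log2 fold change 0.03, interval -0.15 to 0.20). In IP the spread was wide, with 37.5, 59.5 and 50.5 CPM in Ctrl and 38.0, 52.5 and 77.4 CPM in cKO (log2 fold change 0.20, interval -0.31 to 0.71). Input held 20.6, 27.4 and 18.3 CPM in Ctrl and 20.8, 31.0 and 24.8 CPM in cKO (log2 fold change 0.21, interval -0.26 to 0.69, and 0.34 without cKO replicate 1). An IP difference of the size seen in P24 bulk lies inside these intervals.

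**Figure D2:**
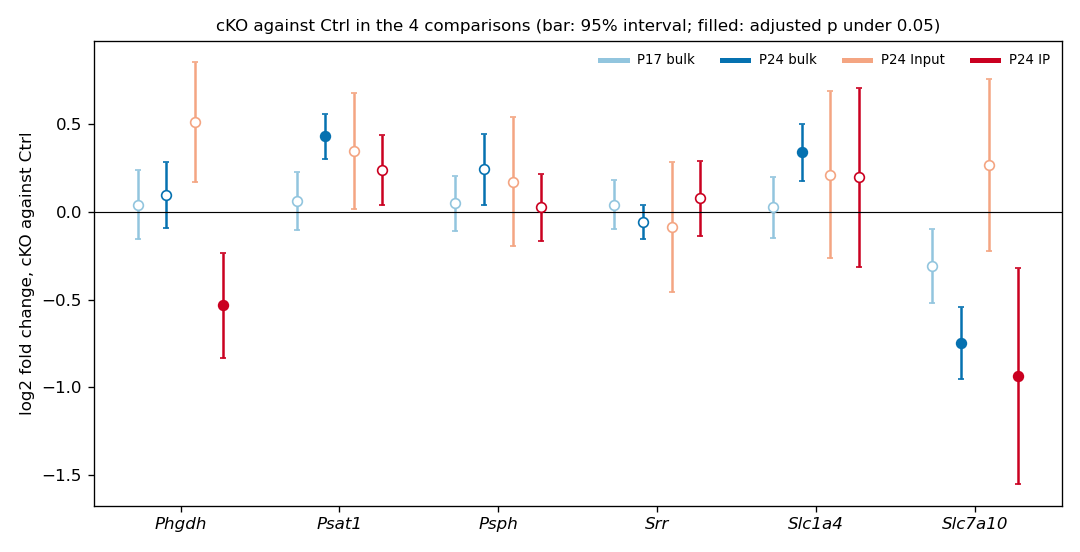
Log2 fold change of cKO against Ctrl (vertical axis) for the 6 serine genes (horizontal axis) in P17 bulk, P24 bulk, P24 Input and P24 IP, with 95% intervals as bars. Filled points had an adjusted p under 0.05. Psat1 (0.43) and Slc1a4 (0.34) lie above 0 and Slc7a10 (-0.75) below 0 in P24 bulk, and Phgdh is on opposite sides of 0 in IP (-0.53) and Input (0.51).

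The 2 carriers moved in opposite directions in P24 bulk, which was put as a ratio of their counts within each library, a quantity that does not depend on the scaling between libraries and was chosen after the levels were seen. The ratio of Slc7a10 to Slc1a4 in P24 bulk was 0.446 to 0.574 in Ctrl and 0.182 to 0.298 in cKO. In IP it was 0.73 to 0.985 in Ctrl and 0.385 to 0.414 in cKO, with the narrower range in cKO. The genotypes overlapped in P17 bulk (0.423 to 0.593 in Ctrl, 0.332 to 0.525 in cKO) and in Input (0.215 to 0.31 in Ctrl, 0.202 to 0.344 in cKO).

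Within the synthesis enzymes the balance of Phgdh to Psat1 was described in the same way, also chosen after the levels were seen. It was 0.582 to 0.637 in Ctrl and 0.295 to 0.422 in cKO IP, and 0.54 to 0.571 in Ctrl and 0.389 to 0.482 in cKO P24 bulk, without overlap in either. P17 bulk (0.595 to 0.677 in Ctrl, 0.532 to 0.764 in cKO) and Input (0.418 to 0.455 in Ctrl, 0.426 to 0.625 in cKO) overlapped. Psph to Psat1 in IP was 0.261 to 0.283 in Ctrl and 0.229 to 0.236 in cKO. Separations of these ratios and of the carriers' ratio restate the levels given above. No share over other pairs of genes was computed beside them.

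**Figure D3:**
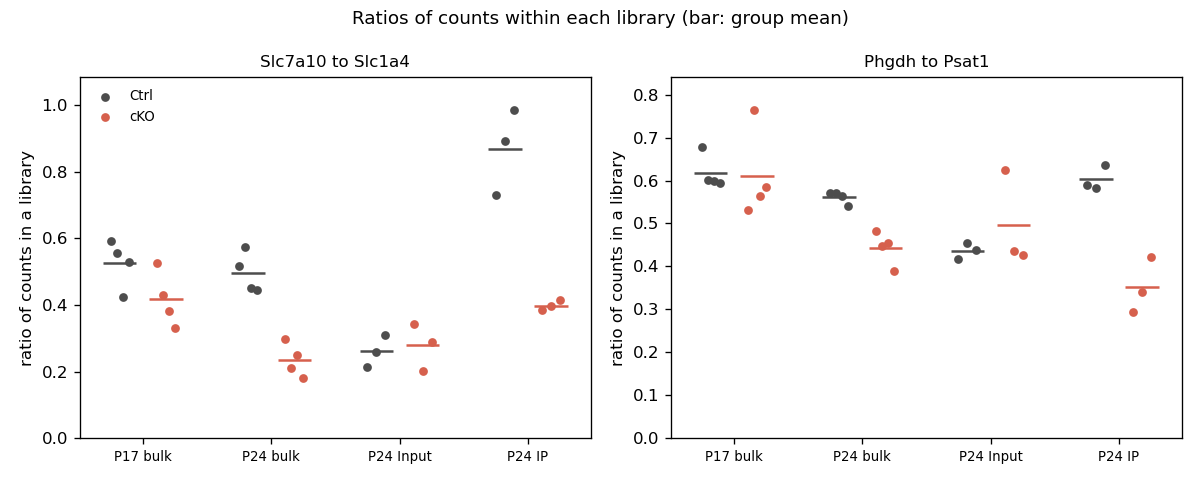
Ratio of counts within each library (vertical axes, from 0), Slc7a10 to Slc1a4 on the left and Phgdh to Psat1 on the right, with Ctrl in grey and cKO in red; each point is 1 library and each bar a group mean. The Slc7a10 to Slc1a4 means are 0.869 in Ctrl and 0.398 in cKO IP and 0.496 and 0.235 in P24 bulk, with no overlap between the genotypes in either setting.

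The IP libraries were compared with the Input of the same mice to see which members sat on the tagged ribosomes. The fit did not pair the libraries of a mouse. In Ctrl, 5 of 6 members were higher in IP, where 71% of 24385 genes differed and 35.3% were higher. In cKO the members other than Srr were higher again, where 56.3% of 24011 genes differed and 27.8% were higher. Phgdh had a log2 fold change of 3.10 in Ctrl (interval 2.87 to 3.33, edgeR adjusted p = 9.3e-10) and 2.05 in cKO (interval 1.62 to 2.48, adjusted p = 4.57e-05). Psat1 (2.63 in Ctrl, 2.51 in cKO) and Psph (2.31 and 2.15) followed, and both had overlapping intervals between the genotypes.

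Slc7a10 was as enriched as the enzymes in Ctrl, at 2.92 (interval 2.37 to 3.48), and measured 1.70 in cKO (interval 1.07 to 2.32). Slc1a4 had a lower enrichment, 1.14 in Ctrl and 1.11 in cKO. Srr was not enriched in either genotype (-0.07 in Ctrl, interval -0.27 to 0.13, and 0.08 in cKO, interval -0.31 to 0.48).

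The test of the fraction by genotype interaction asks whether that enrichment differed between the genotypes. In edgeR 0 of 6 members passed, where 0.0582% of 25768 genes did, and 2 had an unadjusted p under 0.05. Phgdh had the interaction of -1.05 on the log2 scale (SE 0.21, interval -1.50 to -0.60, adjusted p = 0.102). It passed in DESeq2 (adjusted p = 0.000773), without the filter on low counts (0.0122) and without Input cKO replicate 1 (-0.95, adjusted p = 0.0232), so that the call depended on these settings while the direction did not. Slc7a10 had -1.22 (interval -2.09 to -0.34, adjusted p = 0.37), passed without the filter (0.0335), and had -1.20 without Input cKO replicate 1 (0.168). Psat1 (-0.12), Psph (-0.15), Srr (0.16) and Slc1a4 (-0.02) lay close to 0. Calls over all genes rose from 15 to 432 without that library, and in Input from 26 to 112, so that the shares of all genes depend on it.

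**Figure D4:**
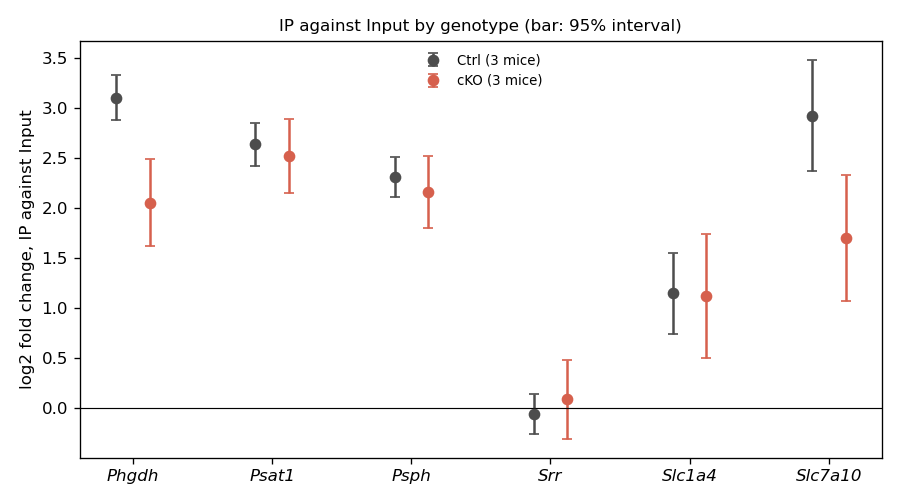
Log2 fold change of IP against Input (vertical axis) for each serine gene in the 3 Ctrl mice (grey) and the 3 cKO mice (red), with 95% intervals as bars. The intervals of Ctrl and cKO are apart for Phgdh (3.10 and 2.05) and for Slc7a10 (2.92 and 1.70) and overlap for the other members, with Srr at about 0 in both.

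The effect of genotype was also compared between the ages in bulk cortex. Each age was a table of its own, so that age and experiment cannot be told apart in this comparison. In edgeR 0 of 6 members passed the age by genotype interaction, where 0.047% of 23395 genes did, and 3 had an unadjusted p under 0.05 (Psat1, Slc1a4 and Slc7a10). DESeq2 also called 0 members. The values were 0.37 for Psat1, 0.31 for Slc1a4 (adjusted p = 0.655) and -0.44 for Slc7a10, and between -0.10 and 0.19 for the other 3.

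Levels were ordered within each group per 1000 exonic bases, since the members differ in length. Phgdh entered with its own reads alone. Its copies held 73.62 to 77.32% of the summed reads in bulk, 63.21 to 64.34% in IP and 60.89 to 66.31% in Input. With them the level of Phgdh would be higher, so that its place in each order below holds for its own reads only. In Ctrl bulk cortex Srr was highest, at 21.3 CPM per kb at P24 and 20.24 at P17, Psph was lowest, at 3.067 and 3.948, and the levels of Phgdh, Psat1, Slc1a4 and Slc7a10 lay between 11.3 and 13.2 at P24, where each overlapped its neighbours in the order. In cKO bulk cortex at P24 Psat1 stood at 17.74, Slc1a4 at 15.53, Phgdh at 13.49 and Slc7a10 at 6.701 CPM per kb, and Slc7a10 no longer overlapped Phgdh, the next above it. In Ctrl IP Phgdh (111.4 CPM per kb) and Psat1 (108) overlapped at the top, followed by Psph (28.56), Srr (24.18), Slc7a10 (20.55) and Slc1a4 (12.52), of which Srr overlapped Slc7a10 and Slc7a10 overlapped Slc1a4. In cKO IP Psat1 (126.6) and Phgdh (76.53) no longer overlapped, and Slc1a4 (14.25) and Slc7a10 (10.65), which overlapped, were the lowest. In Ctrl Input the order was Srr (25.18), Psat1 (17.27), Phgdh (12.89), Psph (5.728), Slc1a4 (5.628) and Slc7a10 (2.718 CPM per kb), with overlap between Psph and Slc1a4. In cKO Input Srr (23.7), Psat1 (21.93) and Phgdh (18.36) overlapped each with the next, as did Slc1a4 (6.512) and Psph (6.448), and Slc7a10 (3.257) was again lowest.

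Input and P24 bulk are both unselected cortex, but they were made by different protocols and scaled apart, and their Ctrl levels differed by member. The ratio of the mean Ctrl level in Input to that in P24 bulk was 1.02 for Phgdh, 1.31 for Psat1, 1.87 for Psph and 1.18 for Srr. It was 0.459 for Slc1a4 and 0.241 for Slc7a10. On their own counts, the carriers were the members that were scarcer in Input than in bulk cortex. For Phgdh the copies, left out of this ratio, held 73.77 to 76.73% of the summed reads in Ctrl P24 bulk. In Ctrl Input they held 64.05 to 66.14%, so that with the copies Phgdh would, like the carriers, be scarcer in Input than in P24 bulk. Other genes were scarcer in Input too. The median astrocyte marker sum was 1053 CPM in Ctrl Input and 3956 in Ctrl P24 bulk. For endothelial markers it was 4.811 and 91.08, and for neuron markers 5699 and 6073.

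Genes around serine were taken from lists chosen by function. Of 7 other amino acid carriers tested in P24 bulk, 1 was higher in cKO, Slc3a2, the heavy chain partner of Slc7a10 (log2 fold change 0.39, edgeR adjusted p = 0.00856), against 1.26% of all genes, with a list median of 0.20 against 0.00054 over all genes. Of 9 enzymes that use serine, 1 was higher, Shmt2, the mitochondrial serine hydroxymethyltransferase (0.42, adjusted p = 0.0109). None of 3 mitochondrial serine carriers, 2 glycine carriers, 7 glycolysis genes around 3-phosphoglycerate and 6 amino acid response genes differed there in edgeR. Of all 34 genes 12 had an unadjusted p under 0.05, with no share of all genes computed beside it. DESeq2 called 4 of them, where it called 598 of all 22495 genes. It added Slc38a1 (-0.21, adjusted p = 0.00515) and the vesicular carrier Slc32a1 (-0.32, adjusted p = 0.0296), both lower and named after their values were seen. In P17 bulk and in Input 0 of 34 genes of these lists differed in edgeR, with 3 at an unadjusted p under 0.05 in each. DESeq2 called 0 and 1, where it called 41 of all 21201 genes in P17 bulk and 127 of 23828 in Input. The gene called in Input was Cbs, which joins serine to homocysteine (0.87, adjusted p = 0.00027), and it too was named after its value was seen.

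In IP 11 genes of these lists differed, where 20% of all genes did. Shmt2 was higher here too (0.60, adjusted p = 0.00738), as was the cytosolic Shmt1 (0.51, adjusted p = 0.048), and Sds, the serine dehydratase, was lower (-1.64, adjusted p = 0.0106). Sds had 7 to 11 counts in cKO and 21 to 41 in Ctrl IP libraries, so that its fold change rests on few counts. Among the carriers Slc38a2 was higher (0.67, adjusted p = 0.00229) and Slc38a1 lower (-0.58, adjusted p = 0.00197), both sodium-coupled carriers of neutral amino acids. Of the glycolysis genes Pgam1, which takes 3-phosphoglycerate onwards (0.69), and Pgk1, which makes it (0.37), were higher among 7. The calls of Shmt1 and Pgk1 stood near the threshold and were kept in 5 and 8 of 13 alternatives. Slc38a1 kept its call in 12 of 13. Shmt1 was lost without any IP library but Ctrl replicate 2 (adjusted p = 0.131 without Ctrl replicate 1, 0.147 without Ctrl replicate 3, and 0.0737, 0.134 and 0.0612 without cKO replicates 1, 2 and 3), Pgk1 without Ctrl replicate 1, 2 or 3 (0.0505, 0.0654 and 0.062), and Sds without Ctrl replicate 3 (0.0504).

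Of 7 amino acid response genes, a list built around targets of the transcription factor ATF4, 4 were higher in cKO IP, where 11.6% of all genes were, with a list median of 0.65 against -0.01. They were Chac1, an enzyme that breaks down glutathione (1.42, adjusted p = 0.0028), Ddit3 (0.65), Sesn2 (0.65) and Trib3. Ddit3 kept its call in 12 of 13 alternatives. Trib3 had 71, 27 and 64 counts in cKO and 4, 2 and 2 in Ctrl IP libraries (adjusted p = 0.000281), counts too few in Ctrl for a fold change to be given. Atf4 itself (0.21) and Asns (0.27), the asparagine synthetase, did not pass the test.

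**Figure D5:**
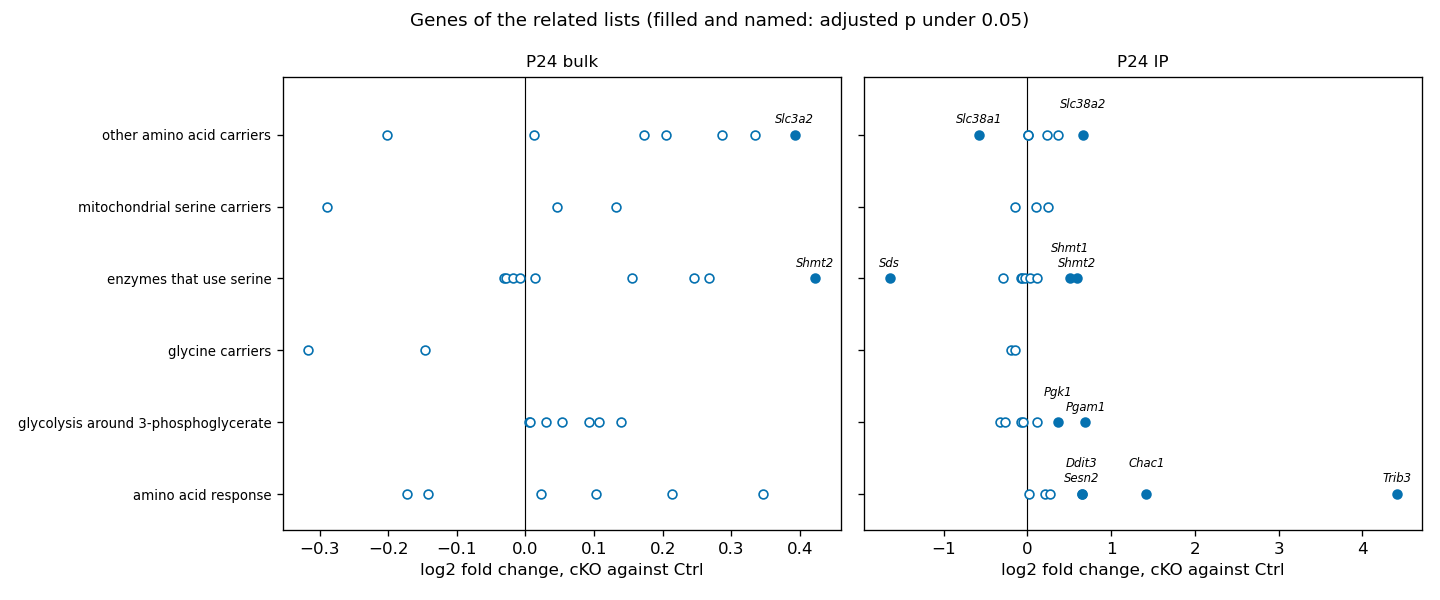
Log2 fold change of cKO against Ctrl (horizontal axes, which differ in range) for the tested genes of 6 lists around serine, in P24 bulk on the left and P24 IP on the right; filled and named points had an adjusted p under 0.05. Slc3a2 and Shmt2 are named in P24 bulk and 11 genes in IP, where the fitted position of Trib3 rests on 2 to 4 Ctrl counts per library.

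The genes whose levels ran most like each member were taken over the 12 TRAP libraries, which share the contrast of IP and Input, so that a high correlation is a description of that contrast. Phgdh ran with its own copies Gm9252 and Gm9347 (Pearson r of log2 CPM 0.999 for both), and with Iqcm (0.998). Psat1 ran with Mmd2 (0.997), Fermt2 (0.996) and Glud-ps (0.996), Psph with Btg1 (0.998), Eci2 and Fbxo15 (0.997 for both), and Slc7a10 with Bcan, a brain proteoglycan (0.989), Fjx1 and Vmac (0.987 for both). Slc1a4 ran with Tmco3 (0.99), Glmp (0.979) and Scd2 (0.978). For Srr the highest value was lower, 0.921, with Tab3, followed by Mapk6 (0.898) and Cbx5 (0.897). Over the 16 bulk libraries the same pairs reached 0.876 for Slc1a4 and Scd2, 0.791 for Psat1 and Fermt2 and 0.702 for Phgdh and Gm9347. Phgdh and Iqcm had 0.579 and Slc7a10 and Bcan 0.444. Values were below 0 for Psat1 with Mmd2 (-0.343) and Glud-ps (-0.13) and Slc7a10 with Fjx1 (-0.301). They were also below 0 for Psph with Btg1 (-0.186) and Srr with Mapk6 (-0.153). The remaining pairs lay between 0 and 0.398.

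Among the members themselves the TRAP libraries gave r of 0.968 for Phgdh and Psat1, 0.978 for Phgdh and Psph, 0.987 for Psat1 and Psph and 0.963 for Phgdh and Slc7a10, and between -0.096 and 0.105 for Srr with the others. In the 16 bulk libraries, which share age and genotype groups, Slc1a4 ran with Psat1 (r = 0.822) and against Slc7a10 (r = -0.813), and Psat1 ran against Slc7a10 (r = -0.762).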

How the data were processed

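Poly(A) RNA of mouse cerebral cortex was measured in 28 libraries, 16 of whole cortex and 12 of TRAP-Seq. The tables that the authors deposited hold unnormalized counts, 1 value for each Ensembl gene and library. The submitters' processing notes name STAR, edgeR and the mm10 build, and the counting tool, its annotation and its use of strand are not given in the sources used here. Of the 53342 identifiers, 53237 of the TRAP table had an entry in GENCODE M21 (GRCm38), the source of symbols, of positions and of the exonic length per gene.

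The counts were tested in R 4.3.3 with the quasi-likelihood test of edgeR 4.0.16, two-sided, with TMM factors, filterByExpr at a minimum count of 10, Benjamini-Hochberg adjustment over all genes tested and a threshold of 0.05. cKO was compared with Ctrl within P24 bulk, P17 bulk, IP and Input, IP with Input within each genotype, and both interactions were fitted. Single levels were compared with exact permutation tests (scipy 1.17.1), which 3 against 3 libraries cannot bring below 0.1. The scripts were tested on simulated counts for cKO against Ctrl in P24 bulk, IP and Input. The planted changes were larger than the members' changes in these comparisons, and the interactions were not simulated. The totals of 8855488 to 27242445 counts per library put the limit that a count of 0 allows (3 counts) at 0.1101 to 0.3388 CPM, for counting error alone.

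Alternatives were RLE factors, library size alone, DESeq2 1.42.0, other filters, the replicate number as a block, all libraries of an experiment in 1 fit and each library left out. Summing the counts of a gene and its pseudogene copies (at least 500 aligned bases, 85% identity) was added after the data were seen. Same-numbered libraries deviated together in P24 bulk (correlations 0.168 to 0.419), P17 bulk (0.309 to 0.686) and IP (0.249 to 0.444), and the labels do not say what a number marks beyond a mouse; in Input they did not for every number (-0.15 to 0.246). IP and Input of a number came from the same mouse. No pair of replicates agreed within sampling noise (chi-square per degree of freedom 2.79 to 89.8 over 36 pairs), so that all were counted.

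The members and lists were chosen with earlier results of these data known. Named genes were the 6 members in every comparison, the genes of the related lists that passed the test (at most 5 per list), and the 3 genes of highest Pearson correlation with each member over the TRAP libraries among those with a mean log2 CPM of at least 3. Each mouse gave 1 library per fraction, so p-values of cKO against Ctrl measure the spread between these mice. The main fits of IP against Input and of the fraction by genotype interaction had no mouse block. Their p-values leave out the pairing of libraries from the same mouse. Promoter sequences and starts were from RefSeq (GRCm38.p6). The gene deleted in cKO mice and its level, and the sequences of Phgdh and its copies, are not reported here.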

Additional observations from a re-analysis of the deposited data

Results flagged for a closer look

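Of 24 groups of 4 bulk libraries examined for a member's level that stands apart from the rest of its group, 2 had such a library, and chance gives about 1 in 20 groups. Slc1a4 in P17 bulk Ctrl replicate 3 was at 54.499 CPM, where the other 3 Ctrl libraries lay between 43.926 and 45.493 CPM. Slc7a10 in P24 bulk Ctrl replicate 2 was at 26.718 CPM, where the other 3 lay between 22.511 and 23.091 CPM. Without the first of these libraries the Slc1a4 log2 fold change at P17 was 0.10 (adjusted p = 1), and without the other the Slc7a10 log2 fold change at P24 was -0.69 (edgeR adjusted p = 0.00761).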

How the results depend on the processing

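Psat1 and Slc7a10 in P24 bulk kept direction and call under every alternative, and Slc1a4 in P24 bulk and Phgdh and Slc7a10 in IP kept direction, with calls lost as given above. The number of members called in IP was 1 with all libraries in 1 fit and 0 to 2 with each library left out, and for the fraction by genotype interaction it was 1 in DESeq2, 2 with no filter and 0 to 1 with each library left out. The block by replicate number changed the call of Psat1 in IP (adjusted p = 0.0425) and of no other member. Scaled by library size alone, 1 member had groups without overlap in IP (40% of all genes) and 1 in Input (11.3%), the IP median of all genes moved from -0.01 to -0.13, and 36.2% of IP calls were higher in place of 58%.

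Genes of the related lists called in P24 bulk were 4 in DESeq2 and 4 with no filter, in IP 7 with all libraries in 1 fit, and in Input 1 in DESeq2, 1 with no filter, 1 with all libraries in 1 fit and 0 to 2 with each library left out. Values that changed sign were all of members that were not called. With each library left out, Phgdh ran from -0.0501 to 0.1067 and Slc1a4 from -0.0099 to 0.1006 in P17 bulk, Slc1a4 from -0.1187 to 0.4376 in IP, Srr from -0.1812 to 0.0294 in Input, from -0.1116 to 0.0072 for IP against Input in Ctrl and from -0.0262 to 0.1734 in cKO, Phgdh from -0.0113 to 0.142 in the age interaction and Slc1a4 from -0.3353 to 0.1749 in the fraction interaction. With library size alone, Psph in IP was -0.0855, Srr in IP -0.0314 and Srr for IP against Input in Ctrl 0.0108, and with no filter the last was 0.0009. The causes were not tested. Calls over all genes moved from 388 to 598 in DESeq2 and 618 with no filter in P24 bulk, from 20 to 41 and 55 in P17 bulk (109 with the replicate block), from 26 to 127 and 112 in Input (8 with the block, 15 with 10 counts in every library, 127 with all libraries in 1 fit), from 11 to 54 and 62 in the age interaction (55 with the block), from 15 to 284 and 189 in the fraction interaction (6 with the block), and from 4782 to 1684 in IP with all libraries in 1 fit. With each library left out they ran from 216 (without cKO replicate 2) to 950 (without cKO replicate 1) in P24 bulk, 11 (without Ctrl replicate 2) to 19 in P17 bulk, 2633 (without cKO replicate 2) to 4810 in IP, 4 (without Ctrl replicate 2) to 112 (without cKO replicate 1) in Input, 4 to 149 (without P24 cKO replicate 1) in the age interaction and 3 to 432 (without Input cKO replicate 1) in the fraction interaction, and the shares of all genes beside the members' counts move with them.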
